A study of Oryza sativa with 18 samples.

Results

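The late fall shared by both rice lines is a set of 76 probe sets for 70 genes. They come from 22436 probe sets with exactly 1 annotated gene, for 17905 genes. The transcripts were measured in leaf sheath of plants about 3 weeks old, at the four-leaf stage, on 18 Affymetrix rice arrays. The groups were NIL-Bph6-RNAi at 0, 6 and 48 h of feeding by the brown planthopper (BPH), a phloem-feeding pest of rice, and NIL-Bph6 at the same times, with 3 arrays labelled as biological replicates in each of the 6 groups. NIL-Bph6 is a near-isogenic line with the planthopper resistance gene Bph6, which the labels call resistant, and NIL-Bph6-RNAi, called susceptible, is by its name that line with an RNAi construct. The sources used here give neither the promoter of the construct nor the number of transgenic events, and the probe set of the targeted gene was not analysed here. Insect-free plants sampled at 6 h or 48 h were not analysed here, and time of day or handling cannot be told apart from feeding. Titles and source names gave the lines and times, while other label fields named different material and partly different times.

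The members were chosen from group means of log2 signal, as changes from the same line's 0 h. A member had a mean of 7 or more over the 18 arrays, a change of at most 0.4 in either direction at 6 h in both lines, and a change of -0.8 or lower at 48 h in both lines. Of the 22436 probe sets, 16322 reached the mean and 9569 of these also met the 6 h limit. Among those 9569, 335 fell far enough at 48 h in NIL-Bph6-RNAi and 179 in NIL-Bph6, and the 76 in both lists were 22.7% of the first list and 42.5% of the second. These changes at 6 h and 48 h chose the members, so they are given as a description with no test. By the same limits with the sign turned, a late rise was met by 11 probe sets.

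Chloroplasts capture light in pigment-protein complexes of the thylakoid membrane, pass electrons through carriers such as plastocyanin and ferredoxin, and fix carbon dioxide with Rubisco, an enzyme that Rubisco activase keeps in working order. When Rubisco takes up oxygen instead, photorespiration recycles the product through the glycine decarboxylase complex of mitochondria, and plastid glutamine synthetase recaptures the ammonium that is set free. The leaf sheath is a green tissue that wraps the stem, and it is where planthoppers feed. Of the 70 member genes, 8 had a name other than a locus number, and 7 of these 8 belong to lists of chloroplast, photorespiration or redox genes. Those lists were matched to genes once the members were known, so nothing is read from that count. The other 62 genes had locus numbers alone and are given no function here.

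Both lines had lower signal for the 76 probe sets at 48 h than at 0 h, while the arrays of a group differed among themselves at each time. In NIL-Bph6-RNAi the median signal over the 76 was 12.19, 12.14 and 12.05 on the 3 arrays at 0 h, 11.63, 11.56 and 12.21 at 6 h, and 11.21, 11.07 and 10.63 at 48 h. In NIL-Bph6 it was 11.92, 11.96 and 11.61 at 0 h, 11.53, 11.81 and 11.63 at 6 h, and 10.42, 10.58 and 11.09 at 48 h. The 48 h arrays lay below the 0 h arrays in both lines. At 6 h, replicates 1 and 2 of NIL-Bph6-RNAi lay below all 0 h arrays of that line, whereas replicate 3 lay above them.

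Replicate 3 of NIL-Bph6-RNAi at 6 h had 71 of the 76 members above the group mean, by a median of 0.34. Replicate 3 of NIL-Bph6 at 48 h had 75 above it, by a median of 0.32. In the other direction, replicate 3 of NIL-Bph6-RNAi at 48 h and replicate 3 of NIL-Bph6 at 0 h each had 4 members above their group means, with medians of -0.20 and -0.19. These 4 arrays stand apart from the other 2 of their groups for most members at once.

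The members were already somewhat lower at 6 h, and that they stayed within 0.4 in NIL-Bph6-RNAi depended on 1 array. The median share of a member's 48 h fall present at 6 h was 30.7% in NIL-Bph6-RNAi and 23.4% in NIL-Bph6. A 6 h change of -0.3 or lower was met by 46 and 20 of the 76. The median change at 6 h was -0.33 in NIL-Bph6-RNAi and -0.24 in NIL-Bph6, with 76 and 68 of the 76 below 0, beside medians of 0.02 and -0.03 over all 32732 probe sets tested. Without replicate 3 of NIL-Bph6-RNAi at 6 h, the median there was -0.50, 57 of the 76 passed the limit of 0.4, and 20 probe sets met the whole rule, 18 of them among the 76. Without replicate 2 of that group, 115 probe sets met it. These 6 h changes share the 0 h arrays with the 48 h changes that were chosen to be low, and they are given as a description only.

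**Figure D1:**
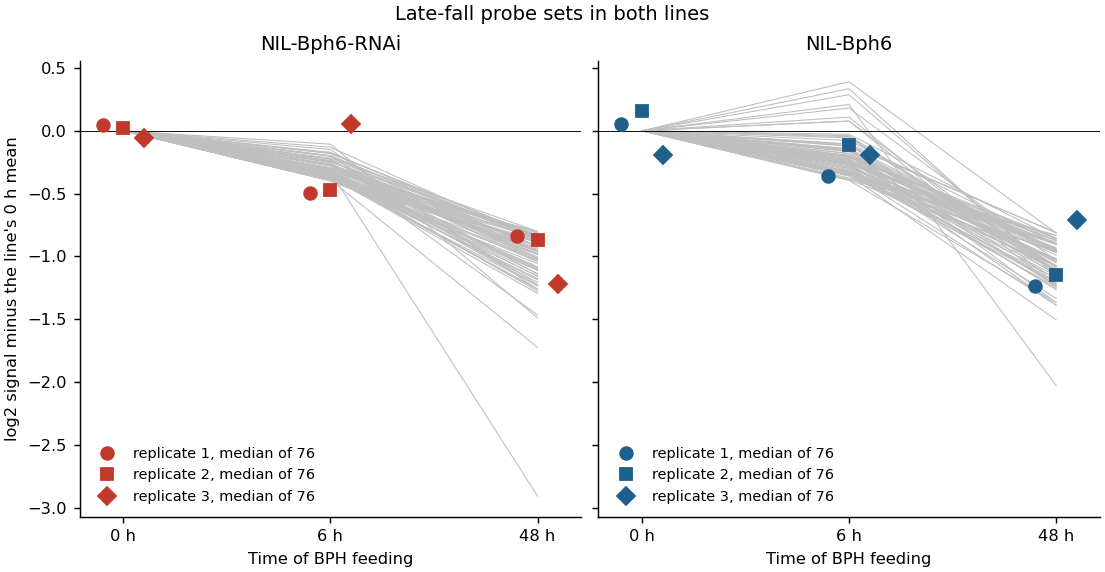
Change of log2 signal from each line's 0 h mean (vertical axis) by time of BPH feeding (horizontal axis), with NIL-Bph6-RNAi in the left panel and NIL-Bph6 in the right. Grey lines are the group means of the 76 probe sets, and large symbols are the medians over the 76 on each array. The 6 h medians of replicates 1 and 2 in NIL-Bph6-RNAi lie well below that of replicate 3, and the 48 h medians lie lowest in both lines.

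At 48 h the fall was close to 2.0-fold in both lines. The median change over the 76 was -0.97 in NIL-Bph6-RNAi, with a range of -2.91 to -0.80, and -1.03 in NIL-Bph6, with a range of -2.03 to -0.81, beside medians of 0.01 and 0.00 over all probe sets tested. As folds, the median falls were 1.96 and 2.05. A fall of 1 or more on the log2 scale was met by 34 members in NIL-Bph6-RNAi and by 44 in NIL-Bph6. In whole sheath, fewer cells of a type and less RNA per cell cannot be told apart.

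In NIL-Bph6-RNAi every 48 h array lay below every 0 h array for 76 of the 76 members, where 22.6% of all probe sets tested showed this. In NIL-Bph6 it was so for 66 of the 76, where 14.6% of all probe sets did. It was so in both lines for 66 members, where 6.87% of all probe sets did. The rule used these contrasts, and nothing is read from the counts. The groups of NIL-Bph6 overlapped for the other 10 members, and for all 76 every 48 h array of NIL-Bph6 lay below replicates 1 and 2 of its 0 h group, so the overlap came from replicate 3. Without replicate 3 of NIL-Bph6 at 48 h, the median change there was -1.19, and without replicate 3 of NIL-Bph6-RNAi at 48 h the median change was -0.88.

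**Figure D2:**
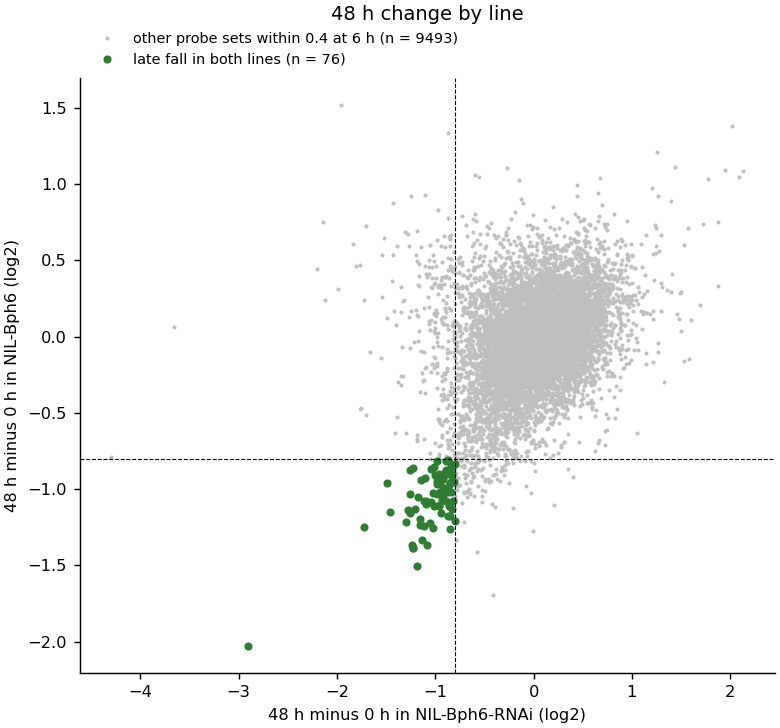
Change of log2 signal at 48 h in NIL-Bph6-RNAi (horizontal axis) and in NIL-Bph6 (vertical axis) for the 9569 probe sets that met the level and 6 h limits, with the 76 members in green and the others in grey. Dashed lines mark -0.8; the members fill the lower left corner by choice, and LOC4346960 lies farthest out at -2.91 and -2.03.

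The light reactions were represented by a chlorophyll a/b-binding protein gene and a ferredoxin gene. RCABP69 (LOC4343583), a light-harvesting antenna protein gene, had signals of 14.23, 14.37 and 14.19 at 0 h, 14.01, 14.03 and 14.31 at 6 h, and 13.28, 12.72 and 13.01 at 48 h in NIL-Bph6-RNAi. In NIL-Bph6 it had 14.10, 14.09 and 13.95 at 0 h, 13.67, 13.95 and 13.73 at 6 h, and 13.01, 13.03 and 13.49 at 48 h. The 48 h and 0 h arrays of RCABP69 did not overlap in either line, and its changes at 48 h were -1.26 in NIL-Bph6-RNAi and -0.87 in NIL-Bph6. ADI1 (LOC4344439), the gene of a leaf ferredoxin, which hands electrons from photosystem I to reductases, had 14.82, 14.95 and 14.91 at 0 h, 14.59, 14.72 and 14.85 at 6 h, and 14.34, 14.14 and 13.60 at 48 h in NIL-Bph6-RNAi. In NIL-Bph6, ADI1 had 14.76, 14.87 and 14.63 at 0 h, 14.42, 14.56 and 14.57 at 6 h, and 13.57, 13.79 and 14.19 at 48 h. Its changes at 48 h were -0.87 and -0.90 in the same order of lines, again with no overlap between 48 h and 0 h arrays.

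In carbon fixation the member was RCA (LOC4351224), the gene of Rubisco activase, with 2 member probe sets that can share sequence. On the brighter of these, NIL-Bph6-RNAi had 14.54, 14.60 and 14.67 at 0 h, 14.11, 13.89 and 14.65 at 6 h, and 14.04, 13.76 and 12.68 at 48 h. NIL-Bph6 had 14.34, 14.45 and 13.30 at 0 h, 13.85, 14.15 and 13.98 at 6 h, and 12.63, 12.82 and 13.41 at 48 h. The changes at 48 h were -1.11 and -1.08, but replicate 3 at 48 h of NIL-Bph6-RNAi was more than 1 unit below its fellows, and in NIL-Bph6 replicate 3 at 0 h was lower than replicate 3 at 48 h. The other RCA probe set moved by -1.21 in NIL-Bph6-RNAi and -1.13 in NIL-Bph6 with the same arrays apart.

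Photorespiration gave 2 member genes. GDCSH (LOC4349114), the gene of the H subunit that shuttles the reaction intermediate within the glycine decarboxylase complex, had 14.20, 14.37 and 14.14 at 0 h, 13.75, 13.84 and 14.30 at 6 h, and 13.53, 13.38 and 12.85 at 48 h in NIL-Bph6-RNAi. In NIL-Bph6, GDCSH had 13.99, 14.27 and 13.87 at 0 h, 13.68, 13.87 and 13.90 at 6 h, and 12.77, 13.02 and 13.51 at 48 h. All 48 h arrays of GDCSH were below all 0 h arrays, and the changes were -0.99 and -0.95. GLN2 (LOC4337272), the gene of plastid glutamine synthetase, had 14.04, 14.04 and 14.09 at 0 h, 13.55, 13.54 and 14.03 at 6 h, and 13.30, 13.36 and 12.62 at 48 h in NIL-Bph6-RNAi. In NIL-Bph6, GLN2 had 13.95, 14.06 and 13.48 at 0 h, 13.55, 13.76 and 13.73 at 6 h, and 12.50, 12.50 and 13.15 at 48 h. The groups of GLN2 did not overlap between 48 h and 0 h, and the changes were -0.96 and -1.11.

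The remaining named members act in peroxide removal, carotenoid synthesis and glycoside hydrolysis. For bas1 (LOC4329578), the gene of a chloroplast peroxiredoxin, NIL-Bph6-RNAi had 14.13, 14.31 and 14.35 at 0 h, 13.70, 13.86 and 14.26 at 6 h, and 13.45, 13.31 and 13.07 at 48 h. NIL-Bph6 had 14.05, 14.06 and 13.98 at 0 h, 13.92, 13.96 and 13.89 at 6 h, and 13.11, 13.04 and 13.50 at 48 h for bas1. Its changes at 48 h were -0.98 in NIL-Bph6-RNAi and -0.81 in NIL-Bph6, with no overlap between 48 h and 0 h arrays. PSY1 (LOC4342137), the gene of phytoene synthase, which makes the first compound committed to carotenoids, had 10.57, 10.43 and 10.32 at 0 h, 10.03, 9.80 and 10.34 at 6 h, and 9.65, 9.58 and 9.57 at 48 h in NIL-Bph6-RNAi. In NIL-Bph6, PSY1 had 10.30, 10.24 and 10.24 at 0 h, 9.79, 9.92 and 9.90 at 6 h, and 9.31, 9.23 and 9.73 at 48 h. Its changes at 48 h were -0.84 and -0.83, and its 6 h changes of -0.38 and -0.39 were close to the limit.

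BGLU10 (LOC4336142), a beta-glucosidase gene and the named member that belongs to no list, was the dimmest named probe set. It had 9.09, 9.07 and 9.11 at 0 h, 8.80, 8.31 and 8.96 at 6 h, and 8.17, 8.75 and 7.67 at 48 h in NIL-Bph6-RNAi. In NIL-Bph6, BGLU10 had 9.38, 9.28 and 7.80 at 0 h, 8.33, 8.55 and 8.84 at 6 h, and 7.99, 7.26 and 7.97 at 48 h. The changes were -0.89 and -1.08, and the NIL-Bph6 groups overlapped through replicate 3 at 0 h.

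**Figure D3:**
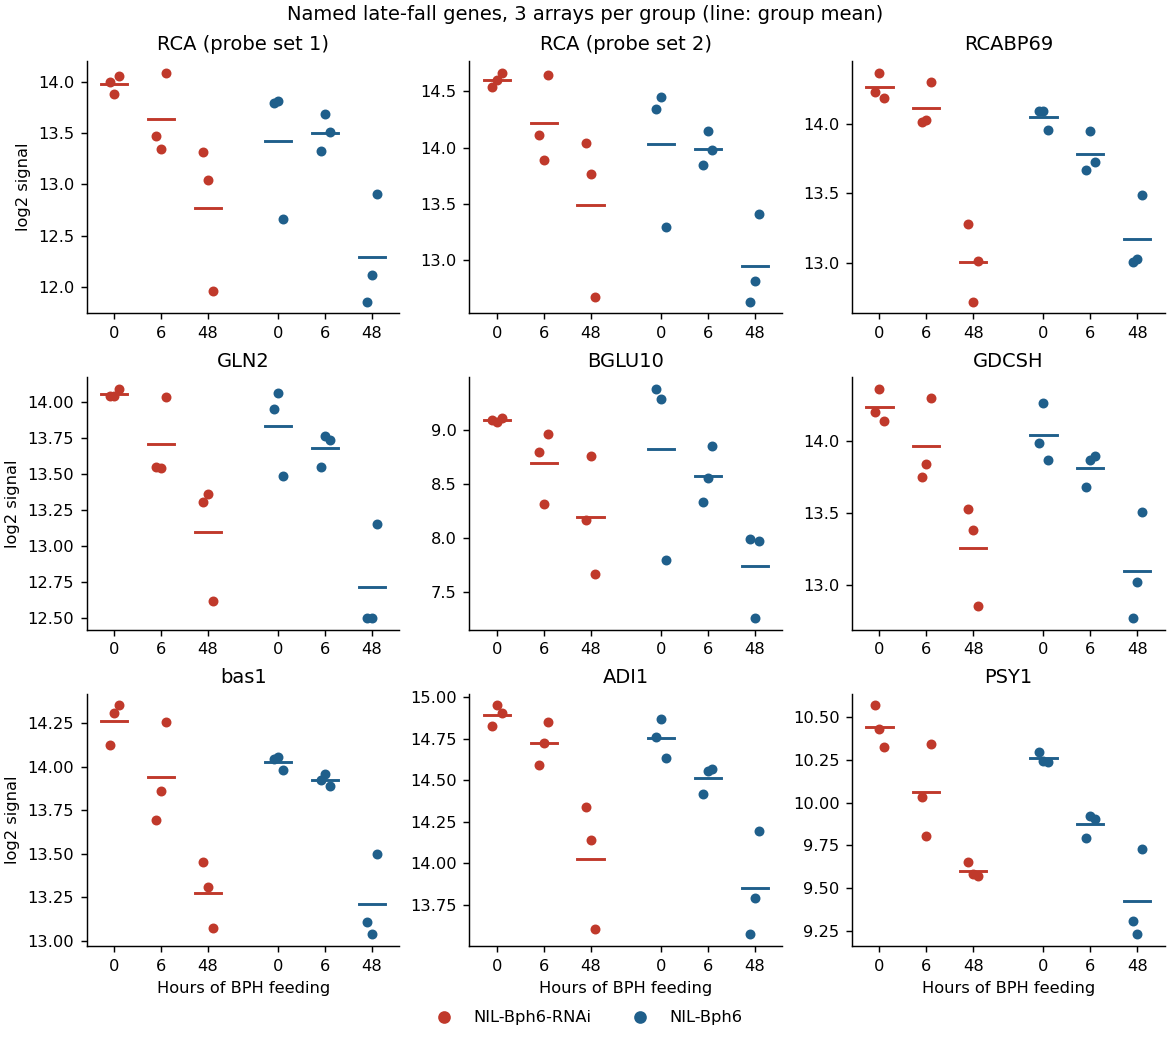
Log2 signal (vertical axes, each with its own range) of the 9 probe sets of the 8 named genes at 0, 6 and 48 h of BPH feeding, with NIL-Bph6-RNAi left and NIL-Bph6 right in each panel. Points are the 3 arrays of a group and short lines their mean; RCA and BGLU10 have a NIL-Bph6 0 h array inside the range of that line's 48 h arrays.

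Among the 62 genes with a locus number alone, LOC4346960 and LOC4345406 were singled out after their values were seen, as those with the lowest mean change at 48 h. LOC4346960 had 8.03, 7.98 and 7.82 at 0 h, 6.98, 8.61 and 7.26 at 6 h, and 5.34, 5.15 and 4.62 at 48 h in NIL-Bph6-RNAi. In NIL-Bph6 it had 8.52, 8.77 and 6.02 at 0 h, 7.61, 8.08 and 8.25 at 6 h, and 5.18, 5.50 and 6.54 at 48 h. LOC4346960 was the dimmest of the members, with a mean of 7.01 over the 18 arrays, its 48 h values were in part below the median signal of 5.78, and its NIL-Bph6 groups overlapped. LOC4345406, with 2 member probe sets, changed by -1.72 in NIL-Bph6-RNAi and -1.25 in NIL-Bph6 on one and by -1.29 and -1.22 on the other. Genes with several member probe sets numbered 5.

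The members were mostly bright, with mean signals from 7.01 to 14.46 and a median of 11.45. A mean of 10 or more was reached by 60 of the 76, or 78.9%, beside 54.0% of the 9569 probe sets that met the level and 6 h limits. Signals of different probe sets are not comparable as amounts of transcript. Probe sets whose name marks cross-matching sequence within the array's design (suffix x) were 12 of the 76, or 15.8%, beside 8.72% of the 9569, so related genes may share signal. Along the genome, LOC4352083 and LOC4352085 were separated by 1 measured gene, and no other pair of members lay within 5 places in the order of measured genes.

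Most other probe sets of the member genes that the rule left out also had changes below 0 at 48 h. There were 26 of them for 17 genes, and 8 had a mean under 7. Of the 18 with a mean of 7 or more, 17 had changes below 0 in both lines at 48 h, and 9 reached -0.8 in both but passed the limit of 0.4 at 6 h. In all, 13 of the 18 passed that 6 h limit in either line or both. They can share sequence with the members and are no independent evidence. ADI1 had a probe set at a mean of 14.63 with 48 h changes of -0.65 in NIL-Bph6-RNAi and -0.63 in NIL-Bph6. RCA had one at 13.66 with changes of -0.79 and -0.87. Another ADI1 probe set changed by -0.77 at 6 h in NIL-Bph6-RNAi and by 0.05 in NIL-Bph6. Another RCA probe set changed by -0.62 and 0.04 at 6 h. A GLN2 probe set, with a mean of 8.78, changed by -0.86 and -1.34 at 6 h and by -1.52 and -2.17 at 48 h. The late start was thus not shared by all probe sets of these genes. LOC4339629 had one with -1.53 and -1.20, and its 6 h change of -0.68 in NIL-Bph6-RNAi left it out. LOC4324032 had one with -1.25 and -1.33 and a 6 h change of -0.49 in NIL-Bph6-RNAi. BGLU10 was the exception: one of its probe sets, with a mean of 7.75, had changes of 0.06 and -0.11, which were not called. Its other one had -0.80, which was called, and -0.59, which was not (adjusted p = 0.18 in limma), so the fall of BGLU10 was not shared by all of its probe sets.

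Other chloroplast genes were then read from lists of names, leaving out the member genes and taking the brightest probe set of each gene. Of 11 other light reaction genes, 7 fell at 48 h in NIL-Bph6-RNAi and 8 in NIL-Bph6, 6 of them in both, and 0 rose (limma, Benjamini-Hochberg adjusted p under 0.05). Over all 16404 genes tested in this way, 21.4% fell and 21.4% rose in NIL-Bph6-RNAi, 9.51% fell and 11% rose in NIL-Bph6, and 6.17% fell in both. The median change of the 11 was -0.43 in NIL-Bph6-RNAi and -0.56 in NIL-Bph6, beside 0.01 and 0.02 over the 16404. PSB28 (LOC4326537), the gene of an assembly factor of photosystem II, fell by 1.70 ± 0.28 (SE, n = 3 per group, as in all such values) with an adjusted p of 0.00024 in NIL-Bph6-RNAi and by 1.39 ± 0.28 with 0.00286 in NIL-Bph6. NDH-M (LOC4336530), a subunit gene of the chloroplast NDH complex, fell by 0.80 ± 0.16 and 1.05 ± 0.16. The thylakoid genes VIPP1 and HCF106, the photosystem I subunit gene PSAH and LFNR1, the gene of a ferredoxin-NADP reductase, also fell in both lines, with changes of -0.37 to -0.67. The HCF106 call in NIL-Bph6 was lost without replicate 2 of its 48 h arrays (adjusted p = 0.0672 in limma). CAB2R, an antenna protein gene, changed by -0.15 ± 0.09 in both lines and PETE, the plastocyanin gene, by -0.07 ± 0.07 and -0.16 ± 0.07, and these 2 were not called.

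Carbon fixation had 4 other genes, of which 2 fell in NIL-Bph6-RNAi, 3 fell in NIL-Bph6 and 2 fell in both. FBPase (LOC4332364), a fructose-bisphosphatase gene, fell by 0.63 ± 0.14 in NIL-Bph6-RNAi and 0.95 ± 0.14 in NIL-Bph6, and RPE, the gene of an epimerase of the Calvin cycle, by 0.30 ± 0.09 and 0.69 ± 0.09. The RPE call in NIL-Bph6-RNAi was lost with quantile normalization (adjusted p = 0.0929 in limma). RBCS, a Rubisco small subunit gene, changed by -0.10 ± 0.08 in NIL-Bph6-RNAi, which was not called, and fell by 0.27 ± 0.08 in NIL-Bph6, a call lost with quantile normalization (adjusted p = 0.204 in limma).

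Chlorophyll synthesis held no member, yet 10 of its 12 genes fell at 48 h in NIL-Bph6-RNAi and 7 in NIL-Bph6, with 6 in both. GSA (LOC4346136), which makes the precursor aminolevulinic acid, fell by 1.07 ± 0.11 in NIL-Bph6-RNAi and 0.73 ± 0.11 in NIL-Bph6. At 6 h, 3 of the 12 had already fallen in NIL-Bph6-RNAi and 2 in NIL-Bph6, where 2.19% and 1.94% of the 16404 genes had. In NIL-Bph6-RNAi these were GSA at -0.60 ± 0.11, HEMD at -0.56 ± 0.16 and CHLG at -0.47 ± 0.12. In NIL-Bph6 they were PORB at -0.44 ± 0.11 and CHLP at -0.40 ± 0.10. The magnesium chelatase subunit gene CHLD, the chlorophyll synthase gene CHLG, the reductase genes CHLP and PORB and the chelatase gene CHLH fell in both lines, with changes of -0.40 to -1.01. The call for CHLH in NIL-Bph6-RNAi was lost without replicate 1 of its 48 h arrays (adjusted p = 0.106 in limma). PORA (LOC4337415), a light-dependent protochlorophyllide reductase gene, fell by 1.55 ± 0.16 in NIL-Bph6-RNAi and changed by -0.14 ± 0.16 in NIL-Bph6. The difference of these PORA changes was -1.41 ± 0.23 (adjusted p = 0.00432 in limma), where 14.9% of the 16404 genes were called.

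Of 8 other genes of photorespiration and ammonium assimilation, 1 fell and 1 rose in NIL-Bph6-RNAi and 3 fell and 1 rose in NIL-Bph6. Fd-GOGAT (LOC4344164), the ferredoxin-dependent glutamate synthase gene, fell by 0.38 ± 0.10 in NIL-Bph6-RNAi and by 0.87 ± 0.10 in NIL-Bph6, and the first call was lost with quantile normalization (adjusted p = 0.0561 in limma). GLN1-2, a cytosolic glutamine synthetase gene, rose by 0.79 ± 0.20 in NIL-Bph6-RNAi and changed by -0.25 ± 0.20 in NIL-Bph6. The glycolate oxidase genes GLO5 and GLO1 fell by 0.48 ± 0.12 and 0.68 ± 0.16 in NIL-Bph6, while GLO3 rose there by 0.51 ± 0.15, a call lost with median centring (adjusted p = 0.1003 in limma). In NIL-Bph6-RNAi these 3 changed by between -0.01 and 0.11 and were not called.

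Of 10 other carotenoid and plastid isoprenoid genes, 3 fell and 2 rose in NIL-Bph6-RNAi, and 3 fell and 0 rose in NIL-Bph6, with 2 falling in both. PSY2, a second phytoene synthase gene, fell by 2.12 ± 0.31 in NIL-Bph6-RNAi and 1.50 ± 0.31 in NIL-Bph6, and PDS, the gene of the next enzyme, phytoene desaturase, by 0.59 ± 0.12 and 0.82 ± 0.12. PSY3, a further phytoene synthase gene, rose by 1.50 ± 0.21 in NIL-Bph6-RNAi and changed by 0.48 ± 0.21 in NIL-Bph6. Among 51 other peroxidase and redox genes, 14 fell and 13 rose in NIL-Bph6-RNAi, and 15 fell and 2 rose in NIL-Bph6. Only 8 of the 2451 named genes on the array were members, and 15 of the 20 lists held no member. Of these 15, chlorophyll synthesis alone is read here, and the others are not read. Genes of the unread lists fell as well, so the falls in chlorophyll synthesis are not shown to be particular to it.

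**Figure D4:**
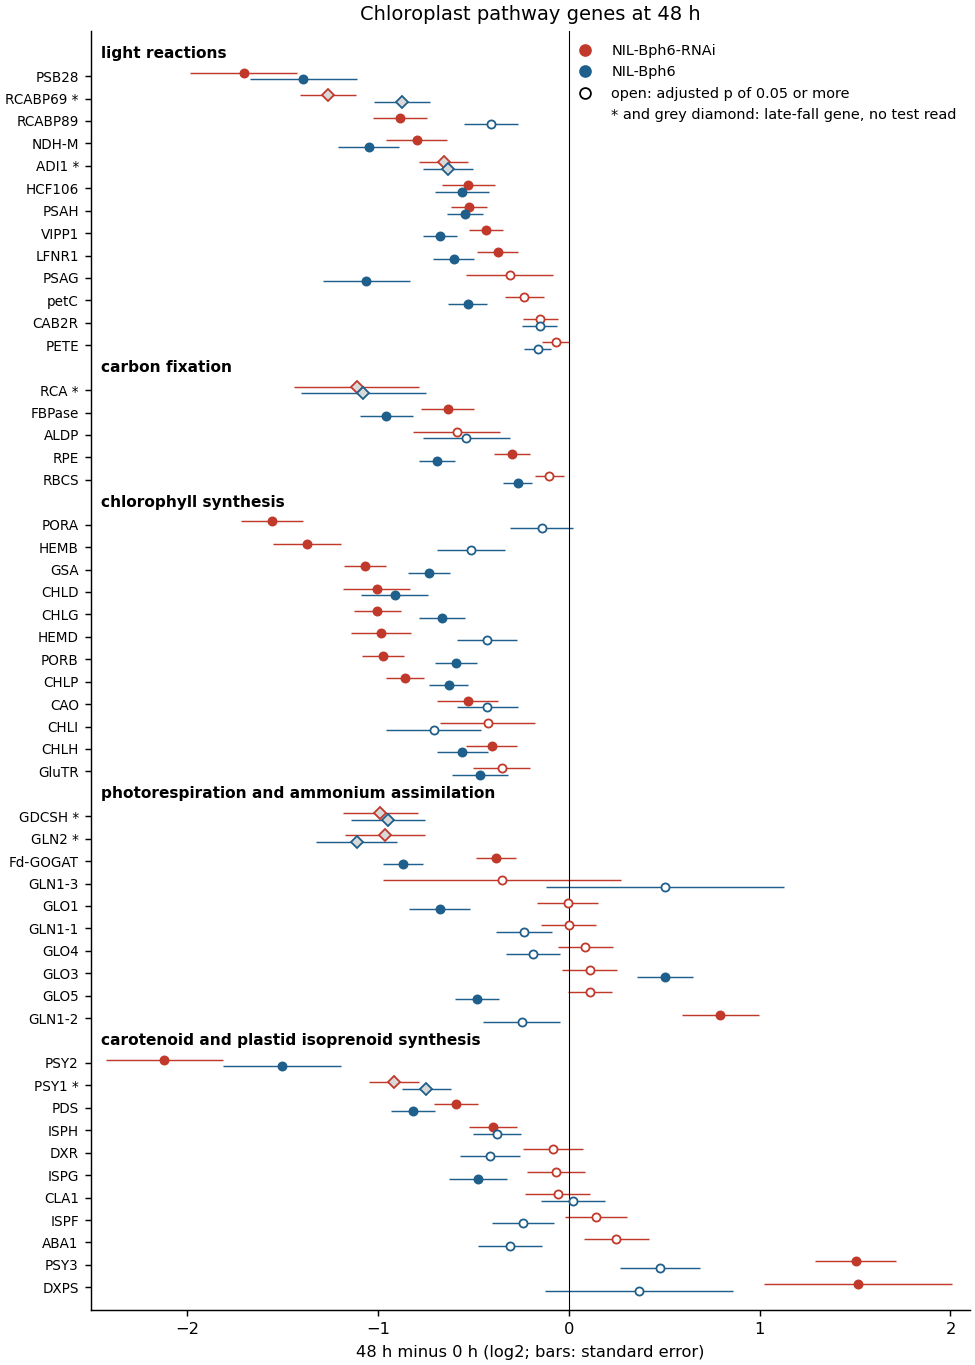
Change of log2 signal at 48 h with its standard error (horizontal axis) for the genes of 5 chloroplast and photorespiration lists (vertical axis), NIL-Bph6-RNAi in red above NIL-Bph6 in blue. Filled points passed the test, open points did not, and grey diamonds with a star are genes of the set, shown by their brightest probe set with no test read; PSB28, CHLD and PSY2 fell in both lines, and PORA and PSY3 moved more in NIL-Bph6-RNAi.

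Whether the lines differed was tested for each member at each time. The rule did not use the difference at 0 h. It limits how far that difference can change by 6 h, and largely by 48 h. The shares called at 6 h and 48 h are therefore in part set by the rule. At 0 h, 1 of the 76 members was higher in NIL-Bph6-RNAi than in NIL-Bph6 and 0 were lower by limma, where 1.41% of all probe sets were called, 0.544% higher and 0.862% lower. At 6 h, 1 was higher and 0 were lower, where 0.862% were called, 0.547% higher and 0.315% lower. At 48 h, 4 were higher and 0 were lower, where 13.6% were called, 4.8% higher and 8.79% lower. An unadjusted p under 0.05 was met by 5 members at 0 h, 3 at 6 h and 14 at 48 h, where 15.8%, 10.9% and 27.1% of all probe sets met it. The share of members called higher at 48 h was near that of all probe sets.

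LOC4338729 was the member that differed at all 3 times. Its signals were 13.13, 13.11 and 13.02 at 0 h, 12.76, 12.68 and 12.99 at 6 h, and 12.40, 12.21 and 12.09 at 48 h in NIL-Bph6-RNAi. In NIL-Bph6 they were 12.52, 12.62 and 12.36 at 0 h, 11.98, 12.27 and 12.19 at 6 h, and 11.33, 11.50 and 11.79 at 48 h. The lines did not overlap at any time, and both fell. The differences, NIL-Bph6-RNAi minus NIL-Bph6, were 0.58 ± 0.13 (adjusted p = 0.0287), 0.66 ± 0.13 (adjusted p = 0.0162) and 0.69 ± 0.13 (adjusted p = 0.00232) in limma. Without replicate 3 of NIL-Bph6 at 0 h the call at 0 h was lost (adjusted p = 0.158 in limma), and without replicate 1 of NIL-Bph6 at 6 h so was that at 6 h (adjusted p = 0.0929 in limma). Of the 20 measured genes nearest to LOC4338729, 10 on each side, 7 differed between the lines at 0 h, 5 at 6 h and 11 at 48 h. Of these, 6, 5 and 6 were higher in NIL-Bph6-RNAi and 1, 0 and 5 were lower. Over all probe sets, 1.41%, 0.862% and 13.6% were called at those times.

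The other 3 members called at 48 h had no call at 0 h. At 0 h, 0 of the 20 measured genes around each differed, where 1.41% of all probe sets did. At 48 h, 1 of the 20 around LOC4341998 differed, 6 around LOC4333266 and 7 around LOC4346272, where 13.6% did. In that order, 0, 2 and 2 of them were higher in NIL-Bph6-RNAi and 1, 4 and 5 were lower. LOC4341998 had 9.61, 9.66 and 9.31 in NIL-Bph6-RNAi and 8.61, 8.80 and 8.88 in NIL-Bph6, a difference of 0.76 ± 0.23 (adjusted p = 0.0388 in limma). LOC4346272 had 12.17, 12.18 and 12.06 in NIL-Bph6-RNAi and 11.51, 11.49 and 11.85 in NIL-Bph6, a difference of 0.52 ± 0.13 (adjusted p = 0.0122 in limma). LOC4333266 had 12.66, 12.59 and 12.45 in NIL-Bph6-RNAi and 11.87, 11.97 and 12.44 in NIL-Bph6, a difference of 0.48 ± 0.15 (adjusted p = 0.0422 in limma). The lines did not overlap for any of these 3 at 48 h, but for LOC4333266 the gap between the nearest arrays was 12.45 against 12.44. Without replicate 1 of NIL-Bph6 at 48 h only LOC4338729 was called, and the adjusted p in limma was 0.124 for LOC4341998, 0.0543 for LOC4346272 and 0.177 for LOC4333266.

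For the 9 probe sets of the named genes none of the tests between lines passed. The lowest adjusted p over the 3 times was 0.274 in limma, for GLN2 at 48 h with a difference of 0.37 ± 0.21. These misses do not show that the lines were equal: with the standard error of 0.33 for RCA, for example, the difference at 48 h was 0.54 (adjusted p = 0.319 in limma).

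Most members lay somewhat higher in NIL-Bph6-RNAi at 0 h and 48 h. The median difference was 0.20 at 0 h, 0.13 at 6 h and 0.27 at 48 h, with 68, 62 and 64 of the 76 above 0. Of the 9569 probe sets that met the level and 6 h limits, 37.6% were above 0 at 0 h, 54.1% at 6 h and 49.0% at 48 h. The members share arrays, so their common sign is not 76 separate observations. Without replicate 3 of NIL-Bph6 at 0 h the median at 0 h was 0.09, with 60 above 0. Without replicate 3 of NIL-Bph6-RNAi at 6 h the median at 6 h turned to -0.05, with 27 above 0. At 48 h the median was 0.43 without replicate 3 of NIL-Bph6 and 0.18 without replicate 1. RNA quality was read from rice controls as the log2 signal at the 3' end minus that at the 5' end. At 0 h it averaged 2.81 ± 0.26 in NIL-Bph6-RNAi and 2.11 ± 0.55 in NIL-Bph6 (SD, n = 3 each), and its part in the result was not tested.

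**Figure D5:**
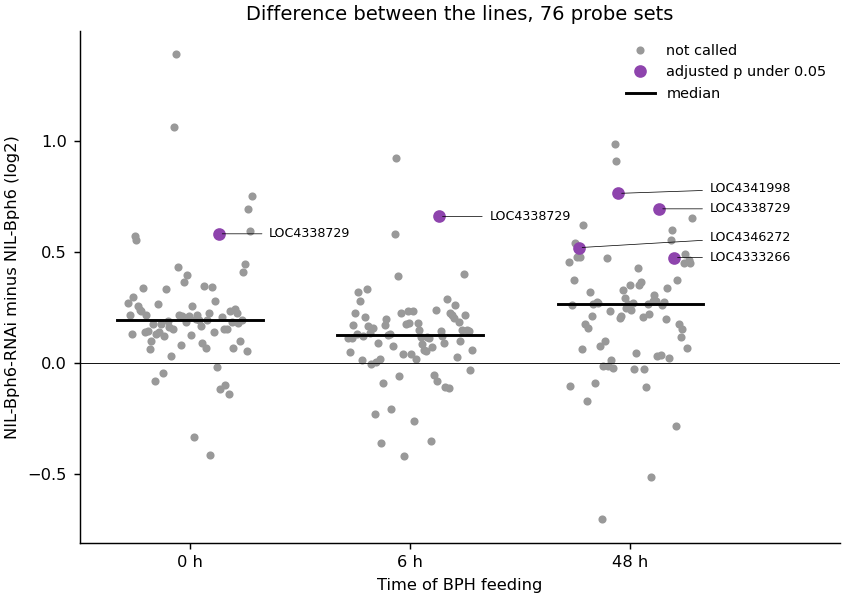
Difference of log2 signal, NIL-Bph6-RNAi minus NIL-Bph6 (vertical axis), at 0, 6 and 48 h of BPH feeding (horizontal axis) for the 76 probe sets. Black lines are the medians of 0.20, 0.13 and 0.27, and purple points with a name passed the test, all above 0.

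The rule asks for a fall of 0.8 or more in both lines and sets no limit on larger falls. It leaves out probe sets that fell that far in 1 line alone, so no test of the difference of falls is read for the members. For the record, limma called the difference of the 48 h changes for 0 of the 76, where 11.2% of all probe sets were called. An unadjusted p under 0.05 was met by 1 member, where 26.6% of all probe sets met it. That member, LOC4330608, changed by -1.49 in NIL-Bph6-RNAi and -0.96 in NIL-Bph6.

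The members moved together from array to array within the groups. Taking each array's deviation from its group mean, the mean Pearson's r between pairs of the 70 genes, 1 probe set per gene, was 0.63 over the 18 arrays. Over 8602 genes within the level and 6 h limits it was 0.04, and over the 4840 of these with a mean of 10 or more it was also 0.04. This is a description: the genes share arrays, and all 18 arrays took part in choosing the members.

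Marker genes of several tissues, and reference genes, were read as means of log2 signal per array. Root and seed are not parts of the sheath, and their lists are given for completeness. The 7 green leaf genes, 1 of them the member RCABP69, lay at 13.13 to 13.28 at 48 h and 13.68 to 13.76 at 0 h in NIL-Bph6-RNAi. In NIL-Bph6 they lay at 12.99 to 13.22 at 48 h and 13.62 to 13.65 at 0 h, so the mean of the 7 was lower at 48 h in both lines. That mean holds RCABP69, which was chosen for its fall, and a mean without it is not given here. The 8 secondary wall genes lay at 9.003 to 10.14 at 48 h and 10.64 to 10.94 at 0 h in NIL-Bph6-RNAi, and at 10.26 to 10.39 at 48 h and 9.68 to 10.67 at 0 h in NIL-Bph6. The 3 phloem and bundle sheath genes lay at 9.87 to 11.07 at 48 h and 11.37 to 11.73 at 0 h in NIL-Bph6-RNAi, and at 11.35 to 11.90 and 11.05 to 11.43 in NIL-Bph6. In NIL-Bph6-RNAi both of these lists lay lower at 48 h than at 0 h on every array, whereas in NIL-Bph6 neither did. The 2 epidermis genes lay at 10.47 to 10.87 at 48 h and 10.21 to 11.14 at 0 h in NIL-Bph6-RNAi, and at 11.74 to 11.93 at 48 h and 10.59 to 10.87 at 0 h in NIL-Bph6. The 12 shoot meristem genes lay at 6.46 to 6.94 at 48 h and 6.70 to 7.42 at 0 h in NIL-Bph6-RNAi, and at 7.94 to 8.48 at 48 h and 6.93 to 7.35 at 0 h in NIL-Bph6. The 5 root genes lay at 10.63 to 10.78 at 48 h and 9.89 to 10.16 at 0 h in NIL-Bph6-RNAi, and at 10.22 to 10.69 at 48 h and 10.48 to 10.89 at 0 h in NIL-Bph6. By these means, epidermis and shoot meristem genes lay higher at 48 h than at 0 h on every array of NIL-Bph6. Root and seed genes did so on every array of NIL-Bph6-RNAi, while seed genes lay lower on every array of NIL-Bph6. The log2 of the summed signals read otherwise for 3 of the lists. Epidermis in NIL-Bph6 overlapped, with 14.19 to 14.41 at 48 h and 14.06 to 14.52 at 0 h. Shoot meristem in NIL-Bph6-RNAi lay higher at 48 h, with 13.01 to 13.05 against 12.77 to 12.92. Seed in NIL-Bph6-RNAi overlapped, with 9.09 to 9.67 at 48 h and 8.93 to 9.22 at 0 h. The means of the 2 seed genes were 7.17 to 7.30 at 48 h and 7.03 to 7.11 at 0 h in NIL-Bph6-RNAi. In NIL-Bph6 they were 7.07 to 7.40 at 48 h and 7.42 to 7.66 at 0 h. The 10 reference genes lay at 12.22 to 12.56 in all groups, and the 2 seed genes at 6.92 to 7.66. The part of tissue composition in the result was not tested.

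The 48 h limit cut through a continuous range of values. The members nearest to it were LOC4324682, whose weaker change was -0.80004, LOC4333266 at -0.80127 and LOC4329119 at -0.80887. Nearest outside were LOC4327722 at -0.79984, LOC4329821 at -0.79966 and APX8, an ascorbate peroxidase gene, at -0.79791. Members and near non-members were thus alike at the limit. Without the 6 h limit, 549 probe sets with a mean of 7 or more fell by 0.8 or more in both lines at 48 h.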

How the data were processed

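The deposited values are log2 MAS5 signals for 57381 probe sets. MAS5 is named, without a version, in the submitters' processing notes, and base and scaling were read from the values: the linear mean, trimmed by 2% at each end, was 500.07 to 500.08 on each array. The sources used here name no further step by the authors. GEO's platform annotation lists 22436 probe sets under 1 gene, 95 under more than 1 and 34850 under none, and a RefSeq gene table gave names and gene order for all 17905 genes, 2451 of them with a name.

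Control probe sets (123) were left out. In R 4.3.3, limma 3.58.1 fitted 1 mean per group over the 18 arrays with an intensity trend, on 32732 probe sets above the median of 5.78 on at least 3 arrays, all 76 members among them. Benjamini-Hochberg adjustment covered all 32732, and calls had an adjusted p under 0.05. Replicates are labelled biological; the labels do not say whether these were separate plants or pools. Precision is limited by 3 arrays per group. The method was tested on simulated data.

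Members, gene lists and tests were chosen with earlier results of these data known. The lists were matched to symbols once member genes were known, and those of photorespiration and of carotenoid synthesis were added then. Named genes are all members with a name, up to 6 called members per test, the 3 nearest on each side of the limit, up to 4 other probe sets, and list genes. LOC4346960, LOC4345406, LOC4330608, LOC4352083, LOC4352085 and the list genes that are no members were named after their values were seen. So were the further probe sets of ADI1, RCA and GLN2 that had passed the 6 h limit. Sequences and promoter motifs were not analysed here. Summaries and plots were made in Python 3.11.15 with pandas 2.3.3, numpy 2.4.6 and matplotlib 3.10.9.

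Alternatives were quantile normalization, median centring, an offset before the logarithm (the 20th percentile of all signals, 9.67), no filter, a stricter filter at 6.85, a fit without the trend, one blocked on replicate number, one on only the groups compared, a minimum change of 1, and leaving out each array. The alternatives for medians at 6 h, medians of differences between lines and the list counts were added after the data had been seen.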

Additional observations from a re-analysis of the deposited data

Results flagged for a closer look

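The changes from 0 h to 48 h differed between the lines, by the limma test of the difference itself, for 6 of the 45 genes of the chloroplast and photorespiration lists that are no members of the late fall. That is 13.3%, near the 14.9% called among the 16404 genes with 1 probe set each, so the count says nothing particular of these lists. Each value is the change in NIL-Bph6-RNAi minus that in NIL-Bph6. PORA differed by -1.41 ± 0.23 (adjusted p = 0.00432) and HEMB, an early enzyme gene of chlorophyll synthesis, by -0.86 ± 0.25 (adjusted p = 0.0366). Fd-GOGAT differed by 0.49 ± 0.15 (adjusted p = 0.0435), GLO5 by 0.59 ± 0.16 (adjusted p = 0.0284), GLN1-2 by 1.04 ± 0.29 (adjusted p = 0.0281) and PSY3 by 1.02 ± 0.30 (adjusted p = 0.0355). The call for PORA held under all 26 alternatives run. The other calls were each lost under 8 to 17 of the 26, with a highest adjusted p of 0.075 for GLO5 and 0.12 for Fd-GOGAT in limma.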

How the results depend on the processing

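The rule was met by 76 probe sets as given, by 41 with median centring (34 of them among the 76), by 26 with a 48 h change of -1 or lower, and by 20 to 115 when 1 array was left out (18 and 72 of them among the 76). Median changes at 48 h, -0.97 in NIL-Bph6-RNAi and -1.03 in NIL-Bph6, ranged from -1.06 to -0.88 and from -1.19 to -0.93 without 1 array, and those at 6 h from -0.50 to -0.21 and from -0.34 to -0.16. The 1 member called at 0 h became 0 with median centring, no trend, the compared groups alone or a minimum change of 1, and 0 to 1 without 1 array. The 1 called at 6 h became 0 with the compared groups alone or the minimum change, and 0 to 1 without 1 array. The 4 called at 48 h became 2 with no filter or no trend, 0 with the minimum change, and 1 to 5 without 1 array. The difference of the 48 h changes had 0 calls in every setting run, leaving out single arrays included (0 to 0). The rule largely fixes this difference, so nothing is read from that.

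Replicate numbers did not pair the arrays: deviations of same-numbered arrays correlated at -0.25 to 0.28 over 45 pairs, 3 of them over 0.1. With the replicate block the members called were 1, 1, 3 and 0 for 0 h, 6 h, 48 h and the difference of changes, the last in part set by the rule.

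Counts of list genes that fell without 1 array, NIL-Bph6-RNAi first, were 7 to 7 and 7 to 9 for light reactions, 1 to 3 and 2 to 3 for carbon fixation, 8 to 10 and 5 to 8 for chlorophyll, 1 to 1 and 3 to 3 for photorespiration, and 2 to 3 and 2 to 4 for carotenoids. In NIL-Bph6-RNAi the 2 carbon fixation genes became 1 with quantile normalization, median centring or no filter, and the 1 photorespiration gene became 0 with quantile normalization. Over 63 single-gene results and their alternatives, 1481 of 1638 kept their call, 157 lost it and 0 reversed. Where a cause is not plain from the setting, the cause was not tested.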
